A study of Rattus norvegicus with 320 samples.

Results

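rno-miR-31a is 1 rat microRNA (miRNA) precursor that gives 2 mature products, rno-miR-31a-5p from its 5′ arm and rno-miR-31a-3p from its 3′ arm. Both arms were taken by name from a count table of 616 miRNAs, so that the members are 2 of 616. They were chosen by their levels across organs and ages and by the ratio of their arms, and these values are therefore described here with no test. The table comes from small RNA sequencing of Fischer 344 rats, an inbred strain. Rats of both sexes were killed at 2, 6, 21 or 104 weeks of age, with 4 rats per sex and age. Adrenal gland, brain, heart, kidney, liver, lung, skeletal muscle, spleen and thymus were taken from both sexes, testis from males and uterus from females, which gave 80 groups of organ, sex and age and 320 libraries. All groups share the strain and the colony, the labels name no treatment or genetic change, and each library is the whole tissue of 1 organ of 1 rat. Organs of the same rats are compared, so libraries of different organs are not independent animals. The 2 libraries that the study removed, brain male week 6 replicate 3 and spleen female week 104 replicate 4, were left out unless stated. The study's methods give as the reason that both grouped with uterus libraries in a clustering rather than with their own organ.

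A miRNA is cut from a hairpin precursor as a duplex, 1 strand of which is usually kept in the Argonaute protein and guides it to messenger RNAs, while the other is mostly degraded. Pairing of bases 2 to 8, the seed, with the target determines most of the repression. miR-31 is conserved in vertebrates and is known for its part in cell migration and adhesion, in epithelial growth and in the control of muscle precursor cells. Its gene lies beside the tumour suppressor genes Cdkn2a and Cdkn2b. In liver, the best known miRNA is miR-122, which is made almost only in hepatocytes.

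The mature arms are shown first because the counts follow these sequences. Capitals mark the seed. The 5p arm lies on the minus strand of chromosome 5 of GRCr8 at chr5:108714906-108714927 and the 3p arm at chr5:108714869-108714891, both within the miRNA gene Mir31. The sequences come from RefSeq for GRCr8, in which both members were found, and are identical to those deposited in the count table. The authors aligned to the older build Rn7, and no position on it is given here.
rno-miR-31a-5p: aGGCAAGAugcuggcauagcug
rno-miR-31a-3p: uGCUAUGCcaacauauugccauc

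The hairpin of 106 bases, chr5:108714849-108714954 on the minus strand, is shown to place the arms, which are in capitals at bases 28 to 49 and 64 to 86.
hairpin: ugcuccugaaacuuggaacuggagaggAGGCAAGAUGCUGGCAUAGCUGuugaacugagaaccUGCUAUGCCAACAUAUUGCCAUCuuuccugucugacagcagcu

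Neither seed occurred in any other of the 616 miRNAs of the table, so that miR-31a has no family member by seed among them. No other listed miRNA has its gene within 1 Mb of Mir31. In the RefSeq annotation, Mir31 lies within the span of the long noncoding RNA gene LOC130062807, and the nearest named genes are Ifne on one side and C5h9orf85, Mtap, Cdkn2a and Cdkn2b on the other. The opposite strand holds the gene Mir3554, whose product rno-miR-31b is shown because it overlaps the 5p arm. It is the reverse complement of bases 1 to 19 of rno-miR-31a-5p. It is not among the 616 miRNAs of the count table and was not analysed here.
rno-miR-31b: cUAUGCCAgcaucuugccu
Whether the strand of a read was used in counting is not given in the sources used here, and reads of this antisense product could not be told apart from those of miR-31a by the counts alone.

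The libraries kept held 124606 reads of rno-miR-31a-5p and 5434 reads of rno-miR-31a-3p. The 3p arm had 0 reads in 50 libraries and 3 or fewer in 123, whereas the 5p arm had 0 reads in 3 libraries and 3 or fewer in 10. By mean count, the 5p arm was miRNA 163 of 616 and the 3p arm miRNA 424. Total counts per library ranged from 315550 to 10571766, with the lowest median in liver (1040989) and the highest in uterus (6436572). Levels are given as CPM, the share of the library total scaled to 1000000 counts. The 5p arm had at least 9 reads in every library outside skeletal muscle, where 3 reads correspond to 0.797 to 3.28 CPM. The 3p arm was at 3 reads or fewer in 29 of 32 muscle and 31 of 32 adrenal gland libraries, and differences between those libraries are not detectable at this depth.

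Liver had the highest level of both arms. rno-miR-31a-5p was at 1219 ± 345 CPM in liver (SD, n = 32), with the lowest library at 625, a median of 1204 and the highest library at 2168. This was 6.07 times the mean of the next organ, testis, and liver alone made up 56.8% of the sum of the 11 organ means. The next organ and the size of the gap depended on the scaling. With trimmed-mean (TMM) scaling, which shifts all miRNAs of a library together, liver was 3.69 times the next organ, uterus, and made up 55.4% of the sum. With totals that leave out the 10 most abundant miRNAs, liver was at 1921 CPM and uterus at 1040 CPM, a ratio of 1.85, and liver made up 39.5% of the sum. rno-miR-31a-3p was at 73.9 ± 28.7 CPM in liver (SD, n = 32), from 24.2 to 132, or 8.22 times testis and 68.2% of the sum. For this arm liver was 8.14 times uterus with TMM and 4.02 times uterus without the 10 most abundant miRNAs. In liver the 5p arm was at a median rank of 47 among the 616 miRNAs, and its rank lay between 40 and 68 in every liver library. No other organ had a median rank of the 5p arm better than that of uterus, 96.5.

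Behind liver, 5 organs lay close together in the 5p arm. Its mean was 201 ± 217 CPM in testis (SD, n = 16) and 188 ± 127 CPM in uterus (SD, n = 16). It was 159 ± 91.3 CPM in heart (SD, n = 32), 149 ± 39.4 CPM in lung (SD, n = 32) and 118 ± 28.1 CPM in brain (SD, n = 31). Each of these organs differed from the next by less than the larger of the 2 SDs. These SDs include the differences between ages, and the order over all ages is not resolved by them. At single ages, lung lay above brain without overlap at week 6 (lowest lung 135 CPM, highest brain 130 CPM) and week 21 (147 and 132 CPM). At weeks 2 and 104 lung and brain overlapped. These ranges are on CPM of the library total and were not computed with the other scalings. The share of all miRNAs that separate lung from brain was not computed either. The order of the 5 organs also depended on the scaling: with TMM, uterus was at 322 CPM and brain at 57.2 CPM. Kidney followed at 52.1 ± 13.2 CPM (SD, n = 32), which was 65.5 CPM below brain on this scale, and single libraries overlapped. With TMM the order of these organs turned, with kidney at 71.4 CPM and brain at 57.2 CPM, so it is not resolved either.

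The lowest levels were found in lymphoid organs, adrenal gland and skeletal muscle. The 5p arm was at 27.1 ± 17.0 CPM in thymus (SD, n = 32) and 21.2 ± 12.3 CPM in spleen (SD, n = 31), which did not differ beyond their spread. It was at 7.35 ± 5.05 CPM in adrenal gland (SD, n = 32) and 5.90 ± 13.5 CPM in muscle (SD, n = 32), and these also did not differ beyond their spread. The 3p arm kept liver and testis in the first positions at 73.9 and 9.0 CPM, and brain, heart, uterus and lung followed at 5.78, 5.67, 5.23 and 4.19 CPM. Its means were between 1.11 and 1.70 CPM in kidney, spleen and thymus, and 0.287 CPM in adrenal gland and 0.267 CPM in muscle, under 3 reads per library on average.

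**Figure D1:**
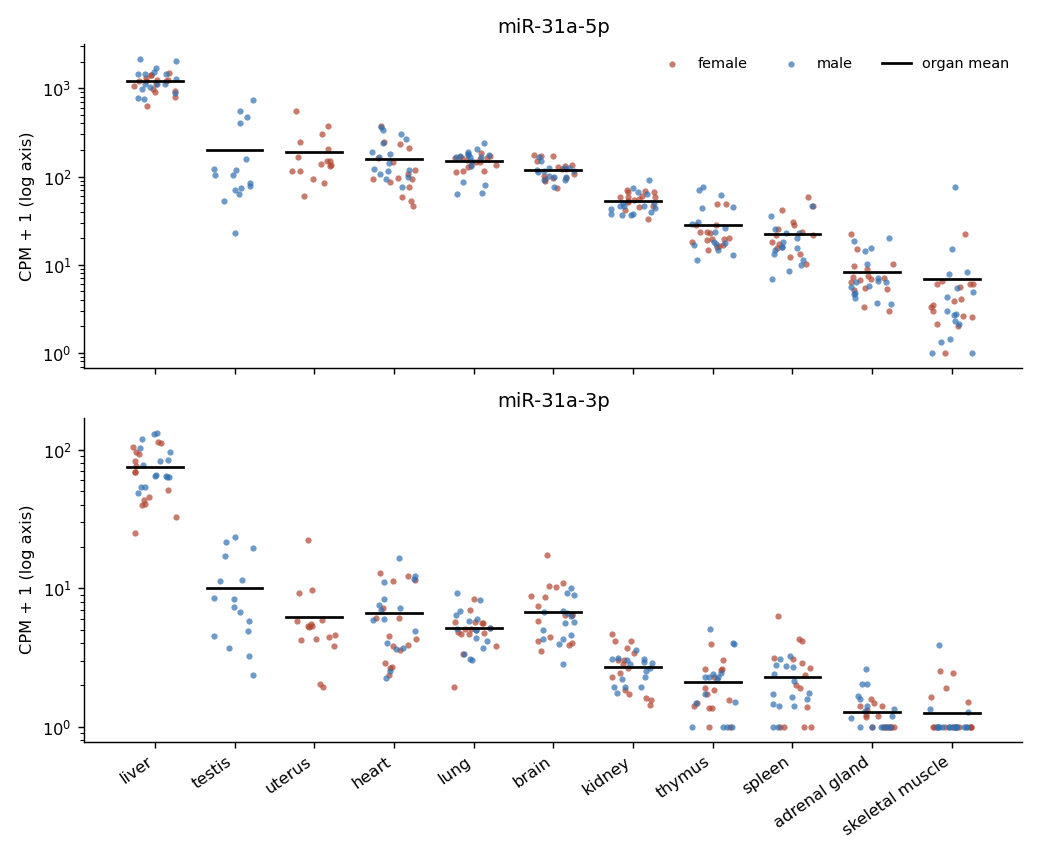
Level of each arm of miR-31a in each library kept, by organ, as CPM + 1 on a log axis. Points are libraries coloured by sex and black lines are organ means; liver stands highest for both arms, at a mean of 1219 CPM for the 5p arm and 73.9 CPM for the 3p arm.

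The organs are bulk tissues, in which fewer cells of a type and less RNA per cell cannot be told apart. The marker of liver cells, miR-122-5p, was at 19418 to 43995 CPM in liver. Outside liver its median ranged from 4.07 CPM in uterus to 31 CPM in adrenal gland, and its mean in any other organ did not exceed 122 CPM. Single libraries stood apart. Lung male week 21 replicate 3 had 2885 CPM of miR-122-5p and also the highest 5p arm of all lung libraries (237 CPM). Adrenal gland female week 2 replicate 3 had 933 CPM of miR-122-5p and the highest 5p arm of all adrenal libraries (21.4 CPM). Kidney male week 2 replicate 1 had 653 CPM of miR-122-5p and 73.7 CPM of the 5p arm. This was the highest 5p arm of the 8 kidneys of week 2, but within the range of kidneys of all ages (32.2 to 89.5 CPM). The part of liver RNA in these 3 libraries was not tested.

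Liver was first at each age, and the gap to the other organs was smallest at week 2. At week 2 the 5p arm was at 923 ± 151 CPM in liver (SD, n = 8), and the lowest liver library, 761 CPM, stood just above the highest testis library, 746 CPM. At week 6 the lowest liver library had 1282 CPM and the highest library of another organ, a uterus, had 552. At week 21 these values were 881 CPM and 237 CPM, the latter in lung, and at week 104 they were 625 CPM and 332 CPM, the latter in heart. A liver above every other library was seen in 3.57% of the 616 miRNAs at week 2, 3.08% at week 6, and 2.27% at week 21 and again 2.27% at week 104. Both arms were separated in this way at all 4 ages on CPM of the library total. The separation was not computed with the other scalings, under which liver led the next organ by less over all ages. Over all ages together, 1.79% of miRNAs were separated, and of the members only the 3p arm was, with its lowest liver library at 24.2 CPM and its highest other library at 22.4 CPM. These shares are a description, since organ levels chose the members.

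Within liver, the 5p arm was at 923 CPM at week 2, 1416 ± 82.8 CPM at week 6, 1110 ± 110 CPM at week 21 and 1427 ± 526 CPM at week 104 (SD, n = 8 each). The spread at week 104 was the widest of the 4 ages, with the 4 males above the 4 females. How many of all miRNAs divide the sexes in this way was not computed. The 3p arm went from 56.1 ± 20.4 CPM at week 2 to 85.7 ± 40.6 CPM at week 104 (SD, n = 8 each), and the libraries of these ages overlapped.

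In testis, the 5p arm was highest in juvenile rats. The 4 testis libraries of week 2 held 402, 474, 550 and 746 CPM, and those of week 6 held 121, 117, 104 and 103 CPM. At week 21 the values were 74.0, 82.5, 61.8 and 52.3 CPM, and at week 104 they were 76.8, 69.6, 21.8 and 158 CPM. The mean of week 2 was 4.88 times that of week 6, and each week 2 library lay above each later one, which was the case for 22.6% of all miRNAs in testis. The 3p arm was separated in the same way, with its lowest week 2 library at 16.1 CPM and its highest later library at 10.6 CPM. Markers of other cell types differed between the same ages. The 3 germ cell miRNAs summed to 661 to 796 CPM at week 2 and 145817 to 177049 CPM at week 6, and the X-linked cluster of testis, of 10 miRNAs, to 8827 to 14690 and 48361 to 80840 CPM. The 3 mesenchymal miRNAs were at 7108 to 9596 CPM at week 2 and 1905 to 2796 CPM at week 6. Of the 12 lists, 7 did not overlap between weeks 2 and 6, and 2, mesenchymal and liver cells, had each week 2 library above each later one. Their part in the testis levels was not tested.

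With TMM the testis difference between weeks 104 and 2 was smaller, -1.18 on the log2 scale in place of -2.73. Among the week 104 testes, replicates 3 and 4, with 21.8 and 158 CPM of the 5p arm, had 145 and 168 CPM of the X-linked miRNA cluster of testis, and replicates 1 and 2 had 2334 and 2100 CPM. Without replicates 3 and 4, the week 104 mean of the 5p arm was 73.2 CPM in place of 81.7. Their part in the spread was not tested.

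In uterus, the 4 libraries of week 6 differed widely in the 5p arm, at 114, 376, 242 and 552 CPM for replicates 1 to 4. The summed level of the 7 epithelial miRNAs in the same libraries was 1845, 5194, 2943 and 6726 CPM, so that both values put these libraries in the same order. The 3p arm, at 4.29, 4.88, 3.24 and 21.2 CPM, put them in another order. The order under the other lists is not given, and 4 libraries can share an order by chance. The part of epithelium in this spread was not tested. Uteri of week 2 lay at 163, 206, 304 and 148 CPM and those of week 104 at 59.9, 113, 139 and 83.3 CPM. These 2 ages did not overlap, as was the case for 39.9% of all miRNAs with the same direction. Of the 12 lists, 5 did not overlap between weeks 2 and 104. Among these, the 3 smooth muscle miRNAs were at 242286 to 306372 CPM at week 2 and 437045 to 471988 CPM at week 104. The epithelial list overlapped, at 2014 to 3379 CPM at week 2 and 2018 to 3703 CPM at week 104. The part of these lists was not tested. The 3p arm had 5.55 ± 3.57 CPM at week 2 and 2.89 ± 1.44 CPM at week 104 (SD, n = 4 each), with overlap.

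Heart had most miR-31a at week 2. Its 5p arm was at 278 ± 60.8 CPM at week 2, 128 ± 24.7 CPM at week 6 and 94.7 ± 11.6 CPM at week 21 (SD, n = 8 each). The lowest heart of week 2, 207 CPM, lay above the highest of weeks 6 and 21, 165 CPM, and the 3p arm was separated as well (7.42 against 6.21 CPM). Of all miRNAs, 15.6% were separated in this way in heart. The 3 mesenchymal miRNAs were at 7170 to 9625 CPM in the hearts of week 2 and 2704 to 4244 CPM in those of weeks 6 and 21, and the 4 lymphocyte miRNAs at 1149 to 2117 and 2556 to 4676 CPM. Apart from miR-122-5p, the other lists overlapped, and the part of these cells was not tested. At week 104 the mean was 134 ± 99.0 CPM (SD, n = 8), with the sexes apart at this age.

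Brain and lung had their lowest mean of the 5p arm at week 2. Brain was at 88.3 ± 9.85 CPM at week 2, 111 ± 12.1 CPM at week 6 (SD, n = 8 and 7), 117 ± 13.2 CPM at week 21 and 154 ± 21.1 CPM at week 104 (SD, n = 8 each). The lowest brain of week 104, 123 CPM, lay above the highest of week 2, 101 CPM, which 4.71% of all miRNAs shared. The 3 nervous tissue miRNAs were at 59596 to 99537 CPM in the brains of week 2 and 44049 to 59204 CPM in those of week 104. The mesenchymal and pancreas lists were likewise higher in each brain of week 2, and the other 9 lists overlapped. Their part was not tested. The 3p arm did not separate these ages in brain. Lung was at 100 ± 33.2 CPM at week 2 and at 164 ± 19.5, 178 ± 30.0 and 153 ± 23.8 CPM at weeks 6, 21 and 104 (SD, n = 8 each). Kidney had the narrowest relative range, with age means of the 5p arm between 47.6 and 61.8 CPM.

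**Figure D2:**
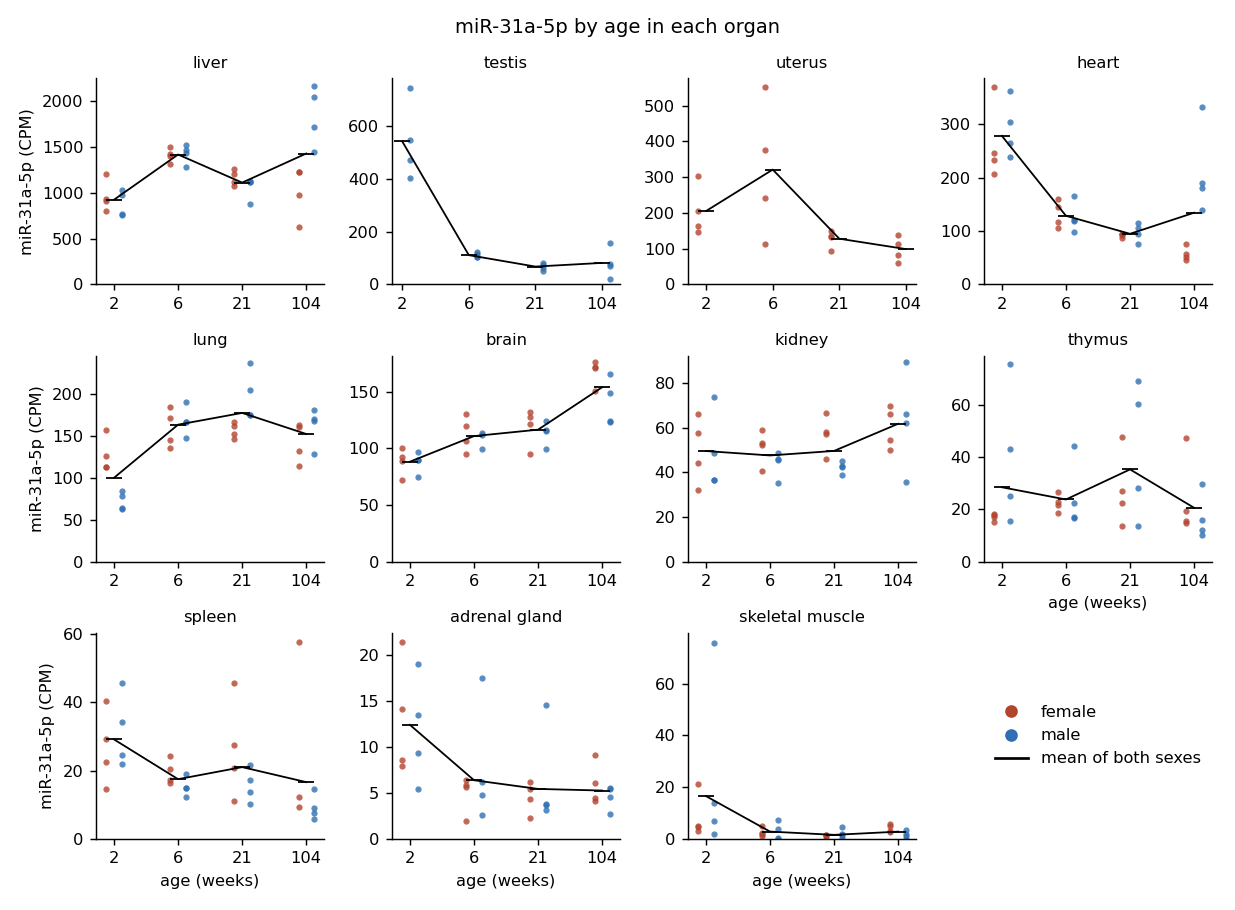
Level of rno-miR-31a-5p in CPM by age in weeks, 1 panel per organ with its own linear axis from 0. Points are libraries coloured by sex and the line joins the means of both sexes; testis has 543 CPM at week 2 and 111 CPM at week 6, and brain 88.3 CPM at week 2 and 154 CPM at week 104.

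In the organs with low levels, a few libraries set the means. In skeletal muscle the 5p arm of the 8 libraries of week 2 was at 21.0, 5.0, 4.57 and 3.05 CPM in females and 1.68, 14, 6.92 and 75.9 CPM in males. The libraries with 75.9 and 21.0 CPM were also highest in the 7 epithelial miRNAs, at 3597 and 1194 CPM, where the other 6 lay between 69.7 and 595 CPM. miR-203a-3p, a miRNA of the skin, was at 2158 and 615 CPM in these 2 libraries. Without both, the week 2 mean was 5.87 CPM in place of 16.5, and the log2 difference between weeks 104 and 2 was -1.09 in place of -2.58. At the later ages muscle was between 0 and 7.37 CPM. The part of other tissue in the week 2 muscle level was not tested.

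Spleen went from 29.1 ± 10.4 CPM of the 5p arm at week 2 (SD, n = 8) to 16.6 ± 18.4 CPM at week 104 (SD, n = 7). Per the study's sample table, all week 2 spleens had a lower RNA integrity number than any spleen of week 104. The mesenchymal list was at 4686 to 6203 CPM at week 2 and 2228 to 4255 CPM at week 104. The part of RNA quality or of other cells in the age difference was not tested. The spleen library with the most 5p arm, female week 104 replicate 3 at 57.8 CPM, had 12482 CPM of the 3 pancreas miRNAs and 4543 CPM of the epithelial list. The other 6 spleens of week 104 had 5.84 to 14.7 CPM of the 5p arm, and the pancreas list was between 12.4 and 2124 CPM in them. Without that library the week 104 mean was 9.74 CPM. Thymus ranged from 10.2 to 75.8 CPM and adrenal gland from 1.98 to 21.4 CPM, with the highest age mean at week 21 in thymus (35.4 CPM) and at week 2 in adrenal gland (12.4 CPM). The 2 removed libraries had 137 CPM (brain) and 118 CPM (spleen) of the 5p arm, the second above every kept spleen library.

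The 5p arm was the more abundant one in all but 3 muscle libraries, in which both arms had 0 reads, and the 3p arm made up 4.18% of all miR-31a reads. The arm ratio, log2 of 5p over 3p reads with 0.5 added to each count, was 4.09 ± 0.475 in liver (SD, n = 32). Spleen, testis, adrenal gland and brain were near it, at 4.02, 4.17, 4.40 and 4.42. The ratio was 5.26 ± 0.757 in uterus (SD, n = 16), 5.15 ± 0.510 in lung (SD, n = 32) and 4.86 ± 0.445 in heart (SD, n = 32). As shares, the 3p arm was 5.78% of the miR-31a reads in liver (95% Wilson interval 5.56 to 6.02, which covers counting error only). In spleen this share was 5.62% (4.50 to 7.01), in brain 4.79% (4.42 to 5.18) and in testis 4.10% (3.74 to 4.50). Adrenal gland had a share of 3.75% (2.67 to 5.24), from 32 reads of the 3p arm. In lung the share was 2.78% (2.57 to 3.00) and in uterus 2.87% (2.63 to 3.13). The libraries of liver and lung overlapped in this ratio, from 3.34 to 5.31 in liver and from 4.26 to 6.98 in lung. The mean of 3.03 ± 1.66 in muscle (SD, n = 32) rests on few reads, with a median of 6 reads of the 5p arm. It was 4.75 over the libraries with at least 20 reads over both arms together, a minority of the muscle libraries. Among these are the week 2 libraries high in epithelial miRNAs, so that 4.75 does not stand for muscle as a whole.

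Arm ratios were compared between organs for 147 precursors, those averaging at least 20 reads over both arms in at least 8 organs. Organs below this minimum were left out, so that miR-31a entered with 10 organs, without muscle. By the SD of the organ means, miR-31a was at position 86 from the most even. The SD of its organ means was 0.448, close to the median of 0.426, and 61 precursors had a larger one. Across the 44 groups of organ and age, the 2 arms correlated at r = 0.930 on log2(CPM + 1), a description over groups that share rats and libraries.

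**Figure D3:**
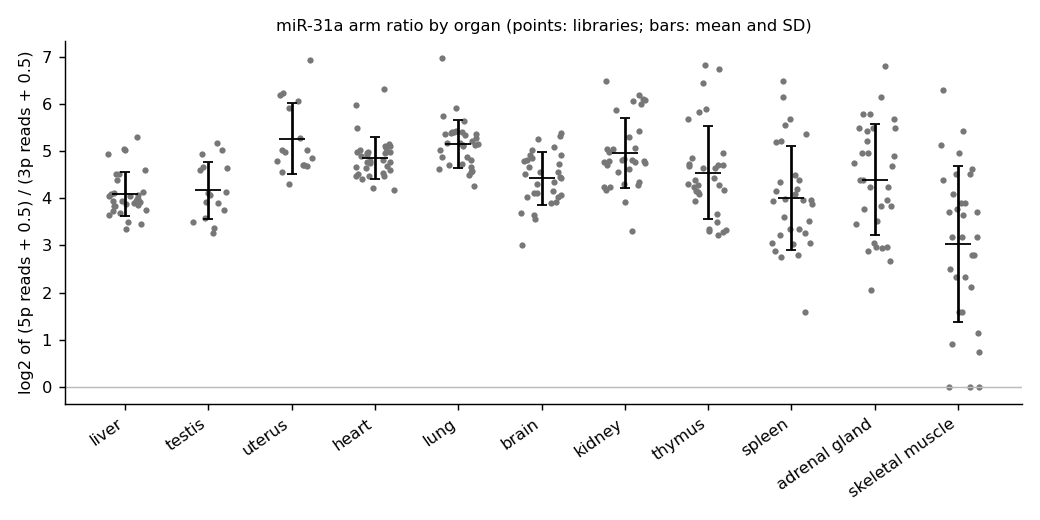
Arm ratio of miR-31a by organ, as log2 of 5p over 3p reads with 0.5 added to each count, on a linear axis. Points are libraries and bars are mean and SD, and all points lie at or above 0. Liver (4.09) lies beside spleen (4.02), testis (4.17), adrenal gland (4.40) and brain (4.42). It is lower on average than lung (5.15) and uterus (5.26).

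The miRNAs whose levels across the 44 groups were most like the 5p arm were named by Pearson's r on log2(CPM + 1) over those averaging 10 or more counts per library. They were miR-455-3p (0.588), miR-194-5p (0.583), miR-802-3p (0.579), miR-122-3p (0.578) and miR-192-5p (0.564). For the 3p arm they were miR-122-3p (0.776), miR-802-3p (0.747), miR-122-5p (0.735), miR-802-5p (0.732) and miR-194-5p (0.661). Most of these are liver miRNAs, and miR-192-5p and miR-194-5p are also high in kidney. Without the liver groups, the values of the first 5 for the 5p arm were between 0.0343 (miR-122-3p) and 0.517 (miR-455-3p). The most alike to the 5p arm over the other 40 groups were then miR-490-3p (0.684), miR-181c-5p (0.680), miR-130a-3p (0.661), miR-181c-3p (0.651) and miR-221-3p (0.648). These coefficients share libraries and carry no test.

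Sex was not used to choose the members and was tested. The question was whether the levels differ between female and male rats in the 9 organs present in both. Averaged over the 4 ages, an adjusted p-value under 0.05 (edgeR quasi-likelihood test, Benjamini-Hochberg over all miRNAs of an organ) was reached by 1.4% of all tests in the 9 organs together. Of the 18 tests of the 2 arms, 1 passed, the 5p arm in heart. At single ages, 1.33% of all tests passed, and 3 of the 72 of the 2 arms did, the 5p and 3p arm in heart at week 104 and the 5p arm in lung at week 2. In 8 of the 72, no library had over 3 reads. The interaction of sex and age passed in 1.43% of all tests, and in 2 of the 18 of the 2 arms, the 5p arm in heart and in lung.

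In the hearts of aged rats, males had more of both arms than females. The 5p arm was at 57.3, 45.7, 76.0 and 51.3 CPM in the 4 females of week 104 and at 140, 191, 332 and 180 CPM in the 4 males. Each male lay above each female, and the means of 57.6 ± 13.2 and 211 ± 84.0 CPM (SD, n = 4 each) differed 3.66-fold. The log2 difference, female minus male, was -1.67 (SE 0.218, adjusted p = 3.77e-06). Against the 1.14% of miRNAs called higher in males in this contrast, 7 of 614, both arms were among the 7, and the 5p arm had the lowest p-value of all 614. The other calls were miR-298-5p, miR-211-5p, miR-298-3p, miR-335 and miR-195-5p, higher in males, and miR-141-5p and miR-181d-5p, higher in females.

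The 3p arm was at 1.68, 1.90, 2.92 and 1.71 CPM in these females and at 3.89, 6.52, 15.6 and 4.92 CPM in the males, again with no overlap. This rests on 5 to 10 reads per female and 10 to 40 reads per male. Its log2 difference was -1.67 (SE 0.387, adjusted p = 0.0188), and the call was lost without replicate 2 (adjusted p = 0.220) or without replicate 3 (adjusted p = 0.145). Replicate 3 of the males had the highest level of both arms. Groups that do not overlap in this direction were found for 3.73% of the 616 miRNAs.

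In the other 3 age groups of heart the sexes overlapped. The 5p arm was at 264 ± 72.1 CPM in females and 292 ± 53.9 CPM in males at week 2, 132 ± 24.3 and 125 ± 28.4 CPM at week 6, and 92.0 ± 4.16 and 97.3 ± 16.7 CPM at week 21 (SD, n = 4 each). Adjusted p-values were between 0.880 and 1 for the 5p arm and between 0.686 and 1 for the 3p arm at these ages. The sex difference of the 5p arm changed with age by the test of the interaction (adjusted p = 0.000663), in a set of 8 calls or 1.3% of 614 miRNAs. The other calls included 4 of the miR-29 family. The interaction of the 3p arm missed the threshold (adjusted p = 0.0666). It passed with DESeq2 (0.0177), with library size only (0.0433), with a mean count of at least 10 (0.0268) and with lane as a covariate (0.0150).

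Averaged over ages, the 5p arm in heart was lower in females by a log2 difference of -0.46 (SE 0.106, edgeR adjusted p = 0.0204). This average rests mostly on week 104 and is not a separate result. The log2 differences were 0.017, -0.020 and -0.15 at weeks 2, 6 and 21, and -1.67 at week 104. Only 0.326% of miRNAs in heart, 2 of 614, were called higher in males on average. The mean of 16 females was 136 ± 87.8 CPM and that of 16 males 181 ± 91.9 CPM (SD). This average was not called with lane as a covariate (adjusted p = 0.0722), nor without replicate 1 (0.173), 2 (0.288) or 4 (0.185).

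The lists of markers did not divide the aged hearts as the 5p arm did, apart from the pancreas list. Its 3 miRNAs summed to 6.37 to 14 CPM in females and 15.6 to 28.2 CPM in males, against a mean of 5479 CPM in adrenal gland, where this list was highest. None of its 3 members was called. The epithelial list was at 158 to 247 CPM in females and 228 to 325 CPM in males, with overlap, and miR-122-5p was at 1.71 to 12.7 and 2.72 to 8.85 CPM. None of the 12 lists had a member called in this contrast. Library totals were 2982007 to 3511549 counts in females and 2146311 to 3859721 counts in males. With the sequencing lane as a covariate the log2 difference of the 5p arm was -1.58 (adjusted p = 1.03e-07).

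**Figure D4:**
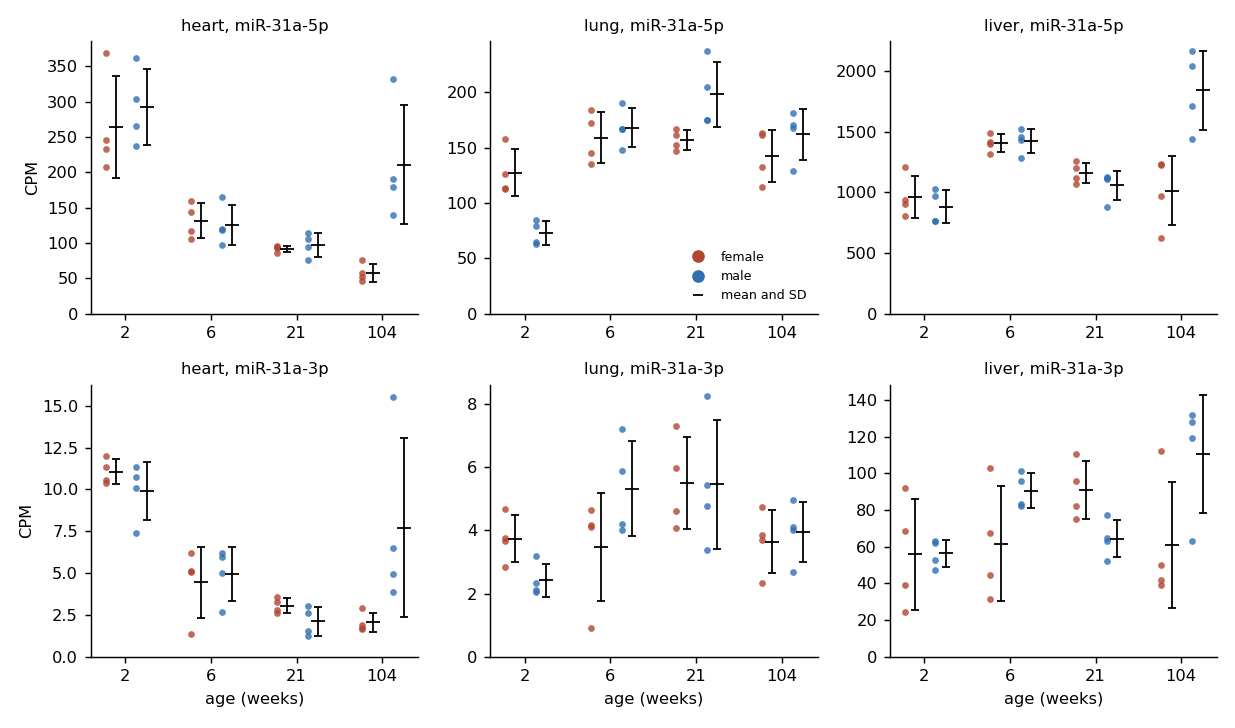
Levels of both arms in CPM by sex and age in weeks in heart, lung and liver, on linear axes from 0. Points are libraries and bars are mean and SD of 4 rats. The 5p arm was called in heart at week 104 (57.6 CPM in females and 211 CPM in males) and in lung at week 2 (128 and 72.7 CPM). Its libraries also did not overlap in lung at week 21 (157 and 198 CPM) and in liver at week 104 (1013 and 1841 CPM), without a call. The share of all miRNAs separated in this way was not computed for either of these contrasts.

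In the lungs of juvenile rats, the 5p arm was higher in females. It was at 113, 158, 126 and 113 CPM in the 4 females of week 2 and at 85.0, 78.9, 64.4 and 62.7 CPM in the 4 males. The groups did not overlap, as was the case with this direction for 3.41% of the 616 miRNAs. The means of 128 ± 21.1 and 72.7 ± 10.9 CPM (SD, n = 4 each) differed 1.75-fold, with a log2 difference of 0.88 (SE 0.144, adjusted p = 0.000454). Of 614 miRNAs, 4 or 0.651% were called higher in females, and the 5p arm had the lowest p-value of all 614. The others were miR-29a-3p, miR-29b-3p and miR-1298. The call was lost without replicate 2, which held the highest female (log2 difference 0.71, adjusted p = 0.108), and was kept with lane as a covariate (adjusted p = 0.0129).

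The 3p arm in juvenile lung was at 4.69, 3.66, 2.85 and 3.77 CPM in females and 2.35, 2.11, 2.06 and 3.18 CPM in males. These ranges overlapped, and the log2 difference of 0.70 (SE 0.343) was not called (adjusted p = 0.498). At the later ages the mean of the 5p arm was higher in males, and none of these differences was called (edgeR adjusted p-values between 0.587 and 0.892). Males were at 168, 198 and 162 CPM and females at 159, 157 and 143 CPM at weeks 6, 21 and 104. At week 21 the sexes did not overlap, with females at 147 to 167 CPM and males at 175 to 237 CPM. The share of all miRNAs separated in this way at week 21 was not computed. The interaction in lung passed for the 5p arm (adjusted p = 0.00200), the first of 7 calls or 1.14% of 614 miRNAs. It was lost without replicate 1 (0.0823), 2 (0.153) or 3 (0.200).

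Other miRNAs divided the juvenile lungs too. The 4 red blood cell miRNAs summed to 18909 to 32203 CPM in females and 35724 to 43772 CPM in males, and 2 of the 4, miR-144-5p and miR-144-3p, were called lower in females. The 3 pancreas miRNAs were at 1818 to 2510 CPM in females and 1356 to 1677 CPM in males. The 3 mesenchymal miRNAs were at 6766 to 7552 and 7779 to 9339 CPM, with miR-214-3p called lower in females. The other 9 lists overlapped between the sexes. The part of blood or of other cells in the difference of the 5p arm was not tested.

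In aged liver the 5p arm was at 625, 1231, 1225 and 971 CPM in females and at 2168, 2042, 1711 and 1444 CPM in males. The groups did not overlap, but the share of all miRNAs separated in this way was not computed for this contrast. The means of 1013 ± 286 and 1841 ± 327 CPM (SD, n = 4 each) differed 1.82-fold. However, the log2 difference of -0.76 (SE 0.200) missed the threshold (edgeR adjusted p = 0.0612). It passed with DESeq2 (0.00877), with scaling by library size only (0.0135) and with a mean count of at least 10 (0.0181). The 3p arm was at 39.4, 112, 50.1 and 42.0 CPM in these females and 128, 132, 119 and 63.0 CPM in the males, with overlap (log2 difference -0.73, SE 0.345, adjusted p = 0.526). The nervous tissue list, 26.2 to 39.3 CPM in females and 18.1 to 20.5 CPM in males, was the only list of the 12 that did not overlap between these groups. Of the members of the 12 lists, 1 was called, miR-34c-5p of the germ cell list, higher in females. Female replicate 1, lowest in the 5p arm, had 12186 CPM of the lymphocyte list, 39148 CPM of the endothelial list, 19253 CPM of the red blood cell list and 927 CPM of the germ cell list. The other 3 females had 1707 to 3215, 12033 to 27768, 6504 to 11777 and 59.8 to 517 CPM of these lists. Its miR-122-5p was at 28496 CPM, where the other females had 31991 to 43995 CPM. Their part in the sex difference was not tested.

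In kidney at week 21 the 5p arm was at 56.9 ± 8.60 CPM in females and 42.3 ± 2.69 CPM in males (SD, n = 4 each). The log2 difference of 0.52 (SE 0.165) was not called (adjusted p = 0.0904), and was called by DESeq2 (0.0225) and with a mean count of at least 10 (0.0379). In spleen at week 104 the log2 difference was 1.29 (SE 0.461, adjusted p = 0.178), with means of 26.4 CPM in 3 females and 9.28 CPM in 4 males. The females were at 9.22, 12.1 and 57.8 CPM and the males at 14.7, 5.84, 7.56 and 9.05 CPM, with overlap. The female at 57.8 CPM is the library with 12482 CPM of the pancreas list, and the mean of the other 2 females was 10.7 CPM. Without replicate 3 of both sexes the log2 difference was 0.13 (adjusted p = 1). With the removed library, which had grouped with uterus, it was 2.08 (adjusted p = 0.00682). In muscle at week 2 the log2 difference was -1.31 (SE 0.711, adjusted p = 0.351), and both sexes held 1 of the libraries high in epithelial miRNAs.

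Averaged over ages, the other 8 organs gave adjusted p-values of the 5p arm between 0.394 and 1.000, with 4 organs higher in females and 4 higher in males. Those of the 3p arm in all 9 organs were between 0.475 and 1.000. The arm ratio did not pass in any of the 9 organs by a two-sided permutation test of sex within ages. The largest difference was 0.305 (log2, female minus male, adrenal gland), and the smallest unadjusted p-value was that of heart, -0.205 with p = 0.186 (adjusted p = 0.719), by permutation with 16 females and 16 males.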

How the data were processed

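Small RNA libraries of 11 organs were sequenced by the authors as single-end reads. Per the paper's methods, adapters were removed with fastp 0.23.2, reads were aligned with Bowtie 1.3.1 to miRBase and other collections, and miRNAs with less than 1 count per library on average were dropped. The deposited values are counts of reads per miRNA and library, not normalized, and both arms passed that filter. Both members and the 12 marker lists were chosen with earlier results of these data known.

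CPM were computed from each library's total over the 616 miRNAs. Organ, age and arm ratio values were described with mean, SD and range. Sex was tested in each of 9 organs with edgeR 4.0.16 (R 4.3.3; quasi-likelihood, TMM, groups of sex and age), with contrasts averaged over ages, at each age, and a sex by age interaction, and Benjamini-Hochberg adjustment over all miRNAs of the organ at a threshold of 0.05. The SE is the absolute log2 difference divided by the square root of the F statistic. Arm ratios were tested by 100000 permutations of sex within ages, adjusted over 9 organs. The edgeR contrast averaged over ages and the permutation test were also run on simulated data. The contrasts at single ages, the interaction and the alternatives were not.

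Named miRNAs are the 2 arms, the 5 most alike to each, those that share a seed or lie within 1 Mb, and the marker lists. Other miRNAs called beside them were named after their values were seen. The alternatives were DESeq2 1.42.0, library size only, a mean count of at least 10, lane as a covariate (lanes are those of the study's sample table), a replicate block, all 320 libraries, other scalings of CPM, and leaving out each replicate. Leaving out the muscle, spleen and testis libraries named in the text was chosen after seeing the data. Totals of 315550 to 10571766 counts set the precision. The other steps ran in SciPy 1.17.1, pandas 2.3.3, NumPy 2.4.6 and Python 3.11.15.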

Additional observations from a re-analysis of the deposited data

Results flagged for a closer look

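In the 136 groups of 4 libraries and arms with over 3 reads in some library, 12 had a library far from the other 3 (a gap over 0.829 of the range), where chance flags about 1 in 20. For the 5p arm these were 5. Adrenal gland male week 21 replicate 3 had 14.6 CPM where the others had 3.14 to 3.78, and liver male week 21 replicate 1 had 881 CPM where the others had 1113 to 1123. Muscle female week 2 replicate 1 had 21.0 CPM against 3.05 to 5.0, and muscle male week 2 replicate 4 had 75.9 CPM against 1.68 to 14. Thymus female week 104 replicate 1 had 47.4 CPM against 14.9 to 19.2.

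For the 3p arm these were 7. Kidney male week 21 replicate 4 had 0.933 CPM against 2.08 to 2.12, and lung female week 6 replicate 2 had 0.923 CPM against 4.12 to 4.65. Liver female week 104 replicate 2 had 112 CPM against 39.4 to 50.1, and uterus week 6 replicate 4 had 21.2 CPM against 3.24 to 4.88. Thymus male week 2 replicate 1 had 4.12 CPM against 1.20 to 1.42. The same muscle libraries as for the 5p arm stood apart, at 1.55 CPM against 0 in the other 3 and at 2.89 CPM against 0 to 0.346.

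The sex difference of the 5p arm differed between ages in heart (adjusted p of the interaction 0.000663) and in lung (0.00200), as given above.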

How the results depend on the processing

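Liver held the highest mean of both arms under each scaling of CPM tried, but the values move with the scaling. With totals that leave out the 10 most abundant miRNAs, the 5p arm was at 1921 CPM in liver, 530 in testis, 1040 in uterus, 362 in heart, 410 in lung, 227 in brain, 200.2 in kidney, 78.5 in thymus, 48.5 in spleen and 26.7 in adrenal gland, and the 3p arm at 116, 23.9, 28.9, 12.8, 11.5, 11.1, 6.62, 3.28, 2.86 and 1.07 CPM in the same organs. TMM has a factor for each library, and the mean shift of an organ was -1.07 (brain) to 0.80 (uterus) on the log2 scale. With TMM the 5p arm was at 322 CPM in uterus, 57.2 in brain and 71.4 in kidney. The log2 difference of weeks 104 and 2 in testis was -1.18 with TMM and -1.54 without the 10 most abundant for the 5p arm, and -0.51 with TMM for the 3p arm, and that of the 5p arm in brain was 1.11 with TMM. The arm ratio of muscle was 4.75 over the few libraries with at least 20 reads over both arms together. With the libraries named in the text left out, the spleen difference of the 5p arm was -1.58 and that of the muscle 3p arm 1.3, in place of -0.81 and -1.3.

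The call of the 5p arm in aged heart held under all alternatives, with log2 differences of -1.77 to -1.51 when single replicates were left out. In the same fits the average in heart was -0.56 to -0.40 and not called with lane (-0.39), lung at week 2 was 0.71 to 1.04, the lung interaction had an adjusted p of 0.0204 to 0.200, and the 3p arm in aged heart was -1.85 to -1.29, with no adjusted p from DESeq2. The heart interaction of the 3p arm passed with DESeq2 (0.0177), library size only (0.0433), a mean count of at least 10 (0.0268) and lane (0.0150). The 5p arm in aged liver passed at -0.73 (DESeq2), -0.86 (library size only) and -0.75 (mean count of at least 10), that in kidney at week 21 at 0.54 (DESeq2) and 0.52 (mean count of at least 10), and that in spleen at 2.08 (all 320 libraries). Leaving out replicates gave -1.31 to -0.48 for the 3p arm in aged liver and -2.61 to 0.55 for the 5p arm in muscle at week 2.

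Averages over ages that were not called changed sign: the 3p arm in lung was 0.068 with DESeq2 and 0.062 with a mean count of at least 10, and in muscle -0.34 with lane. Leaving out replicates gave -0.041 to 0.12 for it in lung, -0.13 to 0.22 in kidney, -0.031 to 0.78 in spleen and -0.30 to 0.73 in thymus, and -0.53 to 0.017 for the 5p arm in muscle. The sex difference of the arm ratio was -0.35 to 0.11 in brain and -0.44 to 0.12 in muscle, and -0.10 in spleen with at least 20 reads.

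Over all miRNAs, 32 averages were called higher in females and 45 in males. These counts were 61 and 76 with DESeq2, 18 and 12 with lane, 18 in females with library size only, and 10 to 40 and 16 to 43 when replicates were left out. Same-numbered libraries of the 2 sexes did not deviate together in every organ and age (correlations from -0.81 to 0.78), so the numbers are not taken to pair rats. With the number as a replicate block the counts were 29 and 40, and the 5p arm in aged heart had an adjusted p of 6.10e-07; no call of the 2 arms changed. The cause of these changes was not tested. Depth limits the 3p arm outside liver and both arms in muscle.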
